A study of Mus musculus with 6 samples.

Results

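The NF-kappa B family and its feedback inhibitors were taken as 8 genes, namely the subunit genes Nfkb1, Nfkb2, Rela, Relb and Rel and the inhibitor genes Nfkbia, Nfkbie and Tnfaip3. They are 8 of 20665 autosomal protein-coding genes that RefSeq lists for GRCm38.p6, an assembly that shares its coordinates with mm10. The members were chosen by name. For each gene, every window of 1000 bp that overlaps its RefSeq span or the 10 kb on either side was used, which gave 345 of the 1683697 autosomal windows measured in each of the 6 samples. The methylation of CpG sites had been read by whole-genome bisulfite sequencing, with tagmented libraries, in endothelial cells sorted from the lungs of wild-type mice. The 3 samples titled Aged were taken as 18 months old and the 3 titled mAdu as 8 months old, since the design names these ages without tying them to titles. No treatment, transgene or mutation is given for either group. Whether each sample came from its own animal or from a pool is not in the labels, so the p-values rest on a spread between samples that may be technical.

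NF-kappa B is a family of dimeric transcription factors that wait in the cytoplasm, bound to inhibitory I kappa B proteins. Cytokines such as TNF, and microbial products, activate a kinase complex that marks the inhibitors for destruction, and the freed dimers enter the nucleus. In endothelium they switch on adhesion molecules, chemokines and survival genes, and they also switch on their own inhibitors, which closes a negative feedback loop. Methylation of CpG sites at a promoter usually goes with a silent gene, and active or poised promoters are usually unmethylated, while the bodies of expressed genes are commonly methylated.

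A table of RefSeq promoters, each running from 250 bases before to 50 bases after a transcription start, held entries for 6 of the 8 members, 9 entries in all. Nfkb1 and Relb had no entry. The sequences below are those on which the promoter results turn, printed 5′ to 3′ on the strand of the gene and credited to RefSeq, build GRCm38.p6. Capitals mark matches to the 10-base kappa B consensus, the DNA element that these dimers bind, searched on both strands with overlapping matches counted separately.
Rel promoter, chr11:23770920-23771219, minus strand: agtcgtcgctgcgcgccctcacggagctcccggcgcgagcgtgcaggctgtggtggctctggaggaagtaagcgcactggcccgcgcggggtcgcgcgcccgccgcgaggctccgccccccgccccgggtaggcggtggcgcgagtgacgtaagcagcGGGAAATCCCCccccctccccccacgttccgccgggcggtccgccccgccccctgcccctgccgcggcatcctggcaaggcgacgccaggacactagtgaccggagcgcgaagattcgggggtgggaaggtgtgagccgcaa
Nfkb2 promoter, first of 3 entries, chr19:46304487-46304786, plus strand: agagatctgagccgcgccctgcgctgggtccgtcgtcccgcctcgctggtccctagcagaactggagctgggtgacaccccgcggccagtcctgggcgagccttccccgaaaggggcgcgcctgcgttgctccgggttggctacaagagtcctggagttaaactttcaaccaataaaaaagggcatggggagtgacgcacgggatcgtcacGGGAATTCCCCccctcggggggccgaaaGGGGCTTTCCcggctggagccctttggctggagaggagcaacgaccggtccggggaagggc
Nfkbia promoter, chr12:55492598-55492897, minus strand: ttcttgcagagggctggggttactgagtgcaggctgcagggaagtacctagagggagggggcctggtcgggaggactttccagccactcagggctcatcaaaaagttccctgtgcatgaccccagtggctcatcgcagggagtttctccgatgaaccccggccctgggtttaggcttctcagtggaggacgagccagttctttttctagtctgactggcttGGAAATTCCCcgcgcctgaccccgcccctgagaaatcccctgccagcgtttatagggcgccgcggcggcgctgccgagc
Tnfaip3 promoter, first of 2 entries, chr10:19015361-19015660, minus strand: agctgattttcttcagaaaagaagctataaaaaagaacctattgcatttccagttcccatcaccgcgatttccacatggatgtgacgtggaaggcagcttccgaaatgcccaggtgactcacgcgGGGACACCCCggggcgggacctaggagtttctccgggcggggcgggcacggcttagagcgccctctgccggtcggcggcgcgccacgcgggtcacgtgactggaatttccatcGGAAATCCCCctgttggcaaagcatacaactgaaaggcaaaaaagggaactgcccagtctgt
Tnfaip3 promoter, second of 2 entries, chr10:19011914-19012213, minus strand: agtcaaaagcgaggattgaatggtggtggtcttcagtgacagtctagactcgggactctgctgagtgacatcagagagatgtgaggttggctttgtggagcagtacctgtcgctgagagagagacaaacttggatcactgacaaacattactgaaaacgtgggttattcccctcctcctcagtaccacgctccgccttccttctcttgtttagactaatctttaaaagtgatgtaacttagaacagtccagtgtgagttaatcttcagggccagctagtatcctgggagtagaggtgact
The Rel promoter held 42 CpG sites, the first Nfkb2 promoter 25, the first Tnfaip3 promoter 22 and the Nfkbia promoter 15, against a median of 7 over the 31396 autosomal promoters of the table, which include those of non-coding genes. The second Tnfaip3 promoter held 6. A kappa B match was present in 7 of the 9 entries and in 5 of the 6 members, and in 8.55% of all promoters searched. The Rela promoter and the second Tnfaip3 promoter held none. A match describes the letters of the promoter and not the binding of a factor.

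Promoters of the family were nearly free of methylation at both ages. The windows over the 6 members' promoters had means over all samples between 0.587% and 3.25%, with the single exception of the second Tnfaip3 promoter. Over the 18789 promoters of autosomal protein-coding genes with a value the median was 8.81%, and 41.9% lay under 5%. The Nfkbia promoter, whose gene encodes I kappa B alpha, an inhibitor that is itself a target gene of NF-kappa B, lay at 0.293%, 1.14% and 0.48% in the aged samples and at 0.367%, 0.63% and 0.616% in the mAdu samples. These ranges overlapped. The promoter of Rel, the gene of the c-Rel subunit, lay at 0.821%, 1.27% and 0.999% in aged and at 1.57%, 1.44% and 1.64% in mAdu. Each aged value was below each mAdu value, and the difference of the means was -0.517 points (limma adjusted p = 0.926). The first Tnfaip3 promoter, of the gene of the ubiquitin-editing enzyme A20, lay at 0.307%, 1.01% and 2.48% in aged and at 0.801%, 0.566% and 0.288% in mAdu. Its second promoter entry, inside the gene, was methylated, at 81.5%, 81.5% and 77.1% in aged and 83.7%, 76.2% and 78.5% in mAdu. The groups overlapped at both Tnfaip3 promoters, and the pair differed from each other by most of the scale in all 6 samples.

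The remaining promoters were likewise low. The Rela promoter, of the gene of the p65 subunit that carries a transactivation domain, lay at 4.27%, 0.561% and 0.56% in aged and at 0.593%, 0.613% and 0.376% in mAdu. Aged replicate 1 alone stood above the other samples there, and the difference of 1.27 points was 0.0331 without it. The Nfkbie promoter, of the gene of I kappa B epsilon, lay at 2.08%, 2.38% and 3.82% in aged and 3.34%, 5.33% and 2.52% in mAdu. Nfkb2, whose product is the precursor processed in the non-canonical pathway, has 3 promoter entries inside its annotated span, and the last pair lie over the same window. The first was at 1.64%, 1.78% and 1.73% in aged and 1.81%, 1.98% and 1.92% in mAdu, a difference of -0.189 points with no overlap of the groups (limma adjusted p = 0.943). The window of the other pair was at 2.26%, 1.61% and 0.296% in aged and 0.869%, 0.2% and 0.215% in mAdu. None of the 9 promoter entries passed at an adjusted p of 0.05 (limma, 0.016% of all promoters called), 0 had an unadjusted p under 0.05, and the groups did not overlap in 2 (10.3% of all promoters). The use of annotated promoters was chosen after seeing the data.

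Gene ends were measured without regard to annotated promoters, as the windows from 1000 bp outside to 500 bp inside each edge of the gene span. The less methylated end of a gene is the one with the lower mean over all 6 samples, so that it lies below the other end by construction. By strand, the less methylated edge was the start edge of the gene span in 6 of the 6 members whose strand is known. The same held in 82.2% of 15213 genes. For Nfkb2 this edge, at 46300994, is apart from its annotated transcription starts, the first of which is at 46304737. The median level of this end was 16.8% in the 8 members and 33.3% in all 19089 genes. The median of the other end was 85.2% in the members and 78.9% in all genes. The members were split there, with Rela at 42.9%, Nfkbia at 38.2% and Nfkbie at 39.6% over all samples. Of all genes, only 5.44%, 4.29% and 4.64% had a lower other end than these. Gene bodies, measured from 500 bp inside each edge, had medians of 69.6% and 73.3%. Regions can average unlike windows. Over all samples, the other end of Rela joined windows at 91.9%, 13.6% and 23.1%, and that of Nfkbie windows at 85.9%, 30.8% and 2.01%. At the other end of Nfkbia the windows were themselves intermediate, at 44% and 32.5%. Within a window, an intermediate level in bulk DNA can come from a mixture of cells or from partial methylation in each cell. These cannot be told apart here.

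**Figure D1:**
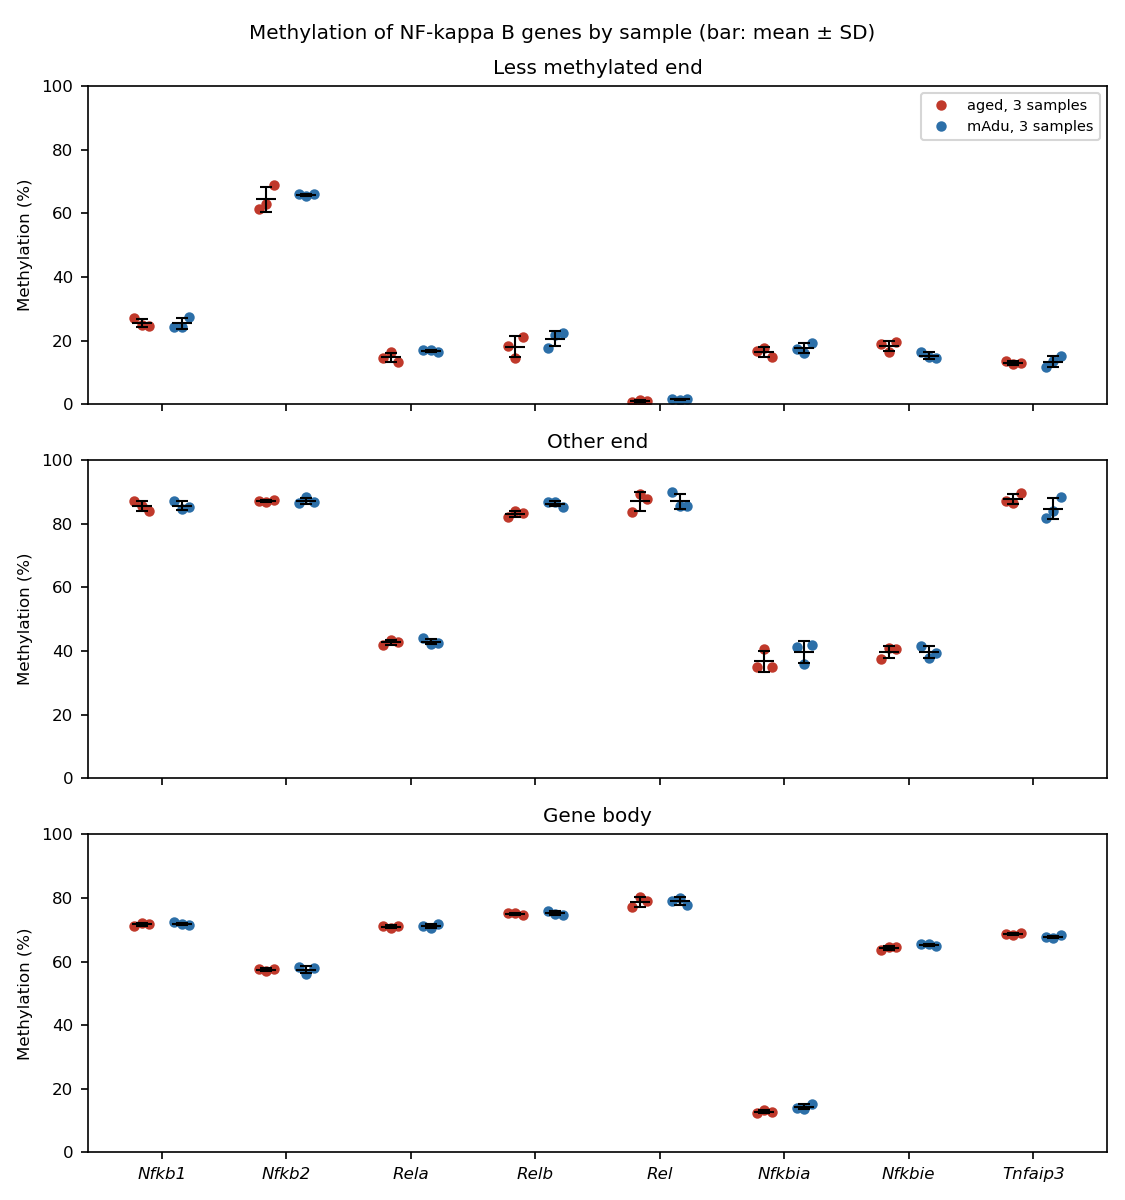
Methylation in percent of the less methylated end, the other end and the body of the 8 genes, with a point per sample and bars for mean ± SD of 3 aged and 3 mAdu samples. The less methylated end lies below 30% for every gene but Nfkb2, whose annotated promoters are further inside its span, and the body of Nfkbia lies far below the other bodies.

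Among the subunit genes, Rel had the least methylated end as a mean of windows. The rank depends on the windows included, since the Nfkb1 end joins a window at 1.09% with an outside window at 49.8%. The unmethylated block at that edge of Nfkb1 averaged 0.862%, and that of Rel 1.29%. Rel (chromosome 11, 23736847 to 23770969) was at 1.03% ± 0.229 in aged and 1.55% ± 0.103 in mAdu (SD, n = 3 each), a level that only 2.83% of gene ends undercut. This end consists of the same 2 windows as the Rel promoter, so it is not a further measurement. The other end of Rel had 1 measured window, which lies outside the gene, at 87.1% ± 2.9 in aged and 87% ± 2.53 in mAdu. The Rel body, the mean of 18 measured windows, was the most methylated of the 8. It was at 77.2%, 80.2% and 78.9% in aged and 79%, 80.1% and 77.7% in mAdu. Rel thus spanned most of the scale between its less methylated end and its body, with the same order in all 6 samples.

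Rela (chromosome 19, 5637442 to 5648134) had low methylation at both edges. The end at its start lay at 14.5%, 16.3% and 13.4% in aged and at 16.9%, 16.9% and 16.5% in mAdu. No aged sample reached the lowest mAdu sample. The difference was -2.06 points (SE 0.846, limma unadjusted p = 0.0467, adjusted p = 0.962). Of the 2 windows behind this end, the promoter window averaged 1.8% in aged and 0.527% in mAdu, and the window outside it, from 5636001 to 5637000, had 24.7%, 32.1% and 26.2% in aged against 33.3%, 33.1% and 32.7% in mAdu. The opposite edge of Rela held a further low window, from 5648001 to 5649000, at 12.5%, 13.3% and 17% in aged and 12.2%, 13.1% and 13.7% in mAdu. That end as a whole was at 42.8% ± 0.83 in aged and 43% ± 0.933 in mAdu, lower than in most genes (5.44% of genes had a lower one).

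Relb encodes a subunit that pairs mainly with the processed product of Nfkb2. Relb (chromosome 7, 19606217 to 19629438) was at 18.4%, 14.6% and 21.1% at its less methylated end in aged and at 17.8%, 21.7% and 22.3% in mAdu, and these groups overlapped. The windows from 19628001 to 19630000 at that edge averaged 4.9% in aged and 5.57% in mAdu. Its other end was at 82.1%, 84% and 83.3% in aged and 86.9%, 86.8% and 85.4% in mAdu. Here the groups did not overlap, with a difference of -3.26 points (SE 1.18, limma unadjusted p = 0.0277, adjusted p = 0.961). The body was at 74.9% ± 0.241 in aged and 75.2% ± 0.576 in mAdu.

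Nfkb2 (chromosome 19, 46300994 to 46312400) had the highest value among the 8 less methylated ends, at 61.4%, 62.9% and 68.9% in aged and 65.9%, 65.5% and 66% in mAdu. This edge lies outside all its annotated promoters, which sit in the unmethylated block from 46304001 to 46306000. That block averaged 1.55% in aged and 1.17% in mAdu, while the windows beside it averaged 60% over all samples. The block also covers the edge of the lncRNA gene 4833438C02Rik. Its body level, which includes the block, was 57.4% ± 0.455 in aged and 57.4% ± 1.15 in mAdu.

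Nfkb1 encodes the precursor of the DNA-binding p50 subunit and is the longest member (chromosome 3, 135584655 to 135691969). Its upper edge held an unmethylated block from 135690001 to 135692000, at 0.261%, 0.439% and 1.72% in aged and 1.75%, 0.146% and 0.86% in mAdu. The end including the window outside was at 25.5% ± 1.38 in aged and 25.4% ± 1.73 in mAdu. The body, the mean of 105 windows, was at 71.7% ± 0.476 in aged and 71.8% ± 0.451 in mAdu. Low windows recurred deep inside the gene and are described with the other low blocks.

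The inhibitor Nfkbia had by far the lowest body mean of the 8 genes. The edge of a lncRNA gene, Gm36634, lies within 1 kb of its start. Nfkbia (chromosome 12, 55489409 to 55492647) is short, and its body is the mean of 4 windows, of which the last covers the promoter. The body was at 12.4%, 13.3% and 12.7% in aged and at 14.1%, 13.7% and 15.3% in mAdu. Only 1.15% of 17534 gene bodies had a lower level. Methylation graded along the gene: the promoter window lay at 0.637% in aged and 0.538% in mAdu, the next window inward at 1.4% and 0.988%, the one after it at 17.9% and 22.1% and the window at the far edge at 31.3% and 33.8%. Beyond that edge the windows from 55488001 and 55487001 stayed intermediate, at 42.3% and 35.6% in aged and at 45.6% and 35.5% in mAdu, before levels above 80% were reached. The other end of Nfkbia was accordingly at 36.8% ± 3.28 in aged and 39.7% ± 3.41 in mAdu, lower than in all but 4.29% of genes.

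Nfkbie (chromosome 17, 45555700 to 45563169) was at 18.8%, 16.5% and 19.4% at its less methylated end in aged and at 16.5%, 14.7% and 14.5% in mAdu. The difference was 3 points (SE 1, limma unadjusted p = 0.0213, adjusted p = 0.946), and the groups touched at 16.5%. The 3 windows behind it did not differ alike. The promoter window averaged 2.76% in aged and 3.73% in mAdu, and the next window inward 10.3% and 9.43%, whereas the outer window from 45554001 to 45555000 had 44.9%, 36.3% and 43.7% in aged and 35.9%, 29.7% and 31.9% in mAdu. With the end drawn from 500 bp outside, which leaves that window out, the difference was -0.0605 points. The Nfkbie body was at 63.7%, 64.5% and 64.7% in aged and at 65.5%, 65.4% and 64.8% in mAdu, without overlap of the groups and with a difference of -0.942 points (limma adjusted p = 0.982), which was 1.26 points with the median of windows in place of the mean.

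Tnfaip3 (chromosome 10, 19000910 to 19015410) was at 13% ± 0.583 at its less methylated end in aged and at 13.4% ± 1.76 in mAdu. Its other end was at 87.9% ± 1.57 in aged and 84.7% ± 3.24 in mAdu. The body was the only one with a higher mean in aged, at 68.7%, 68.2% and 68.9% in aged and 67.6%, 67.4% and 68.2% in mAdu. These ranges touched at their edges, and the difference of 0.858 points did not pass (limma adjusted p = 0.982) and was -1.16 points with the median of windows.

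In 23 runs of adjacent windows at the 8 genes the mean over all samples lay under 20%. Of the 345 windows 34 (9.86%) were this low, against 2.89% of all autosomal windows. The latter include windows far from any gene, so these shares come from unlike sets, and other gene loci were not compared. Of the low windows, 29.4% at the members had no RefSeq gene edge within 1 kb, against 48.3% of all low windows. Of the 23 runs, 10 lay within 1 kb of an edge of the member or over its promoter, 5 likewise at the edge or promoter of another gene, and 8 at no gene edge or promoter. Of the 8, 4 were inside Nfkb1, 2 inside the gene Psd beside Nfkb2, 1 inside Tmem151b beside Nfkbie and 1 inside Tnfaip3. The flanks of Nfkbie and Nfkb2 were rich in them, and the mean over gene and flanks was 45.9% ± 0.738 in aged and 46.2% ± 0.414 in mAdu for Nfkbie and 53% ± 0.814 and 52.9% ± 0.173 for Nfkb2. Among the runs near Nfkbie were those at Tmem151b, at Slc35b2 and at the chaperone gene Hsp90ab1, the last at 0.51% in aged and 0.704% in mAdu. The flank of Relb reached the unmethylated edge of Clasrp, at 3.91% in aged and 3.14% in mAdu.

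**Figure D2:**
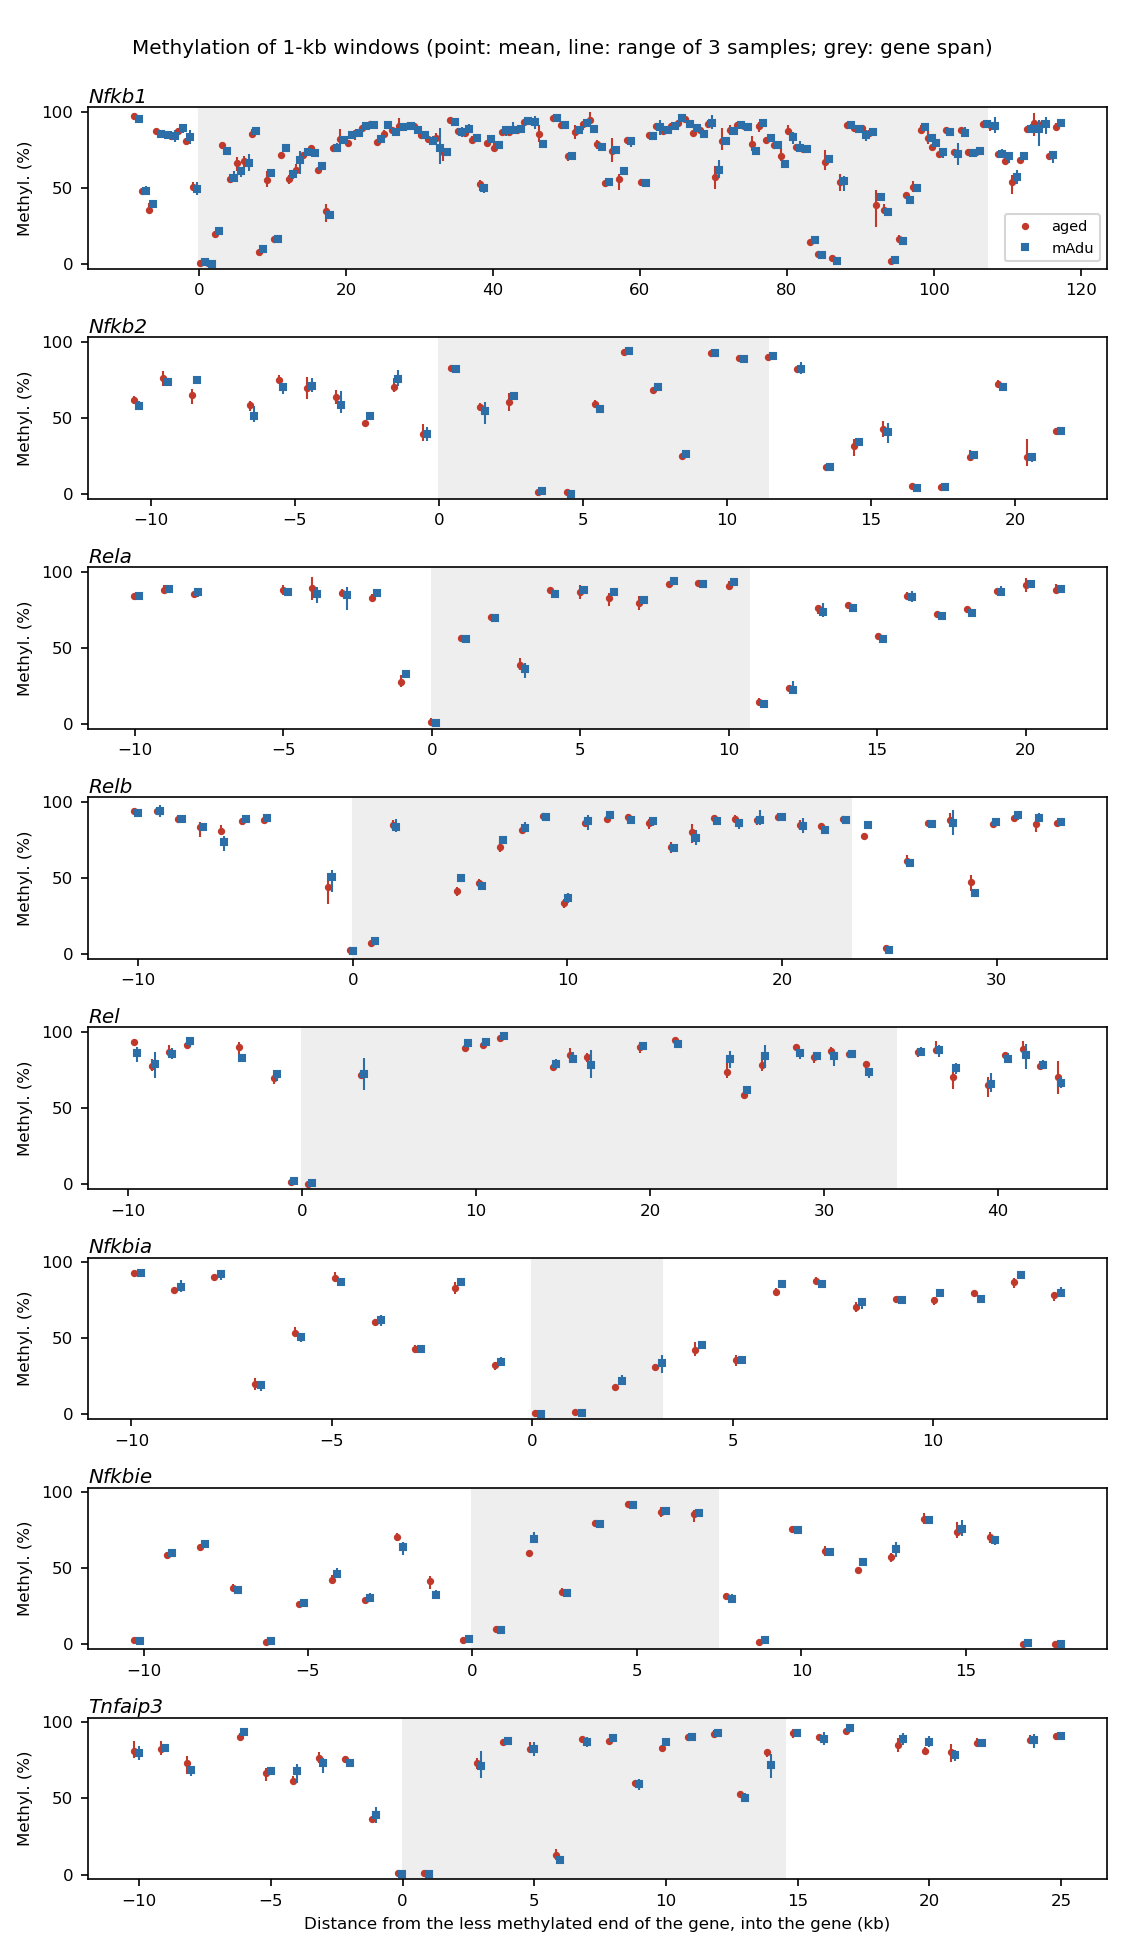
Methylation in percent of each 1-kb window against the distance in kb from the less methylated end, counted positive into the gene, for aged and mAdu (point, mean of 3 samples; line, their range) with the gene span in grey. The levels of both groups lie over each other. Unmethylated windows lie at an end of every gene but Nfkb2, where they lie at promoters inside the span. Further low windows lie inside Nfkb1 and Tnfaip3.

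The low windows inside Nfkb1 lay between more methylated neighbours. The run from 135596001 to 135598000 was at 7.83%, 10.5% and 10.2% in aged and at 8.91%, 8.18% and 9.27% in mAdu, with neighbours at 39.4%. The single window from 135605001 to 135606000 was at 2.26%, 5.89% and 4.73% in aged and at 2.31%, 1.28% and 2.79% in mAdu, with neighbours at 61.2%. The run from 135607001 to 135609000, at 10.5% in aged and 11% in mAdu, lies over the annotated promoter of the lncRNA gene Gm46827. Nearer to the less methylated end, the window from 135683001 to 135684000 was at 7.65% in aged and 10.1% in mAdu, and that from 135681001 to 135682000 at 16.8% and 16.6%. No gene edge or promoter of the RefSeq tables lay within 1 kb of any of these but the Gm46827 run. Inside Tnfaip3, the window from 19009001 to 19010000 was at 12.8%, 9.6% and 16.6% in aged and at 11%, 7.14% and 11% in mAdu, between neighbours at 85.3%. All these windows were low in each of the 6 samples.

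Counting windows under 20% in each sample gave closely similar totals at both ages. For Nfkb1 there were 10, 10 and 9 such windows in aged and 9 in each mAdu sample. For Nfkbia there were 3, 4 and 3 in aged and 3, 2 and 2 in mAdu. For Nfkb2 there were 6, 5 and 6 in aged and 5 in each mAdu sample, while Rela had 2 in each aged sample and 2, 2 and 3 in mAdu. Relb, Rel, Nfkbie and Tnfaip3 had the same count in all 6 samples (3, 2, 7 and 3). Exact two-sided permutation p-values, which cannot fall below 0.1 with 3 samples a group, lay between 0.3 and 1 (adjusted over the 8 genes, exact permutation p = 1).

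The comparison of aged with mAdu asks whether the family's methylation differs between 18 and 8 months. No member passed in any region. At the less methylated end 0 of 8 members were called at an adjusted p of 0.05 (limma, 0.00524% of all genes called) and 2 had an unadjusted p under 0.05. At the other end it was 0 of 8 (0.0105% of all genes) with 1 at an unadjusted p under 0.05. Over bodies it was 0 of 8 (0.0171% of all genes) with 1, and over the gene with its 10-kb flanks 0 of 8 (0.0% of all genes) with 1. Over all genes, the shares with an unadjusted p under 0.05 were 4.97%, 5.1%, 4.97% and 4.75% in the same order. Adjusted p-values of the members lay between 0.946 and 1 (limma). The groups did not overlap in 2 members at the less methylated end (10.2% of all genes), Rela and Rel, in 1 at the other end (10.3%), Relb, in 2 bodies (10%), Nfkbia and Nfkbie, and in 1 of the gene spans with flanks (9.89%), Nfkbia. The Rel end is the same measurement as the Rel promoter, whose lack of overlap was counted above.

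More members had negative than positive differences at the ends and over bodies. The less methylated end had a negative difference in 6 of 8 members (median -0.782 points), where 49% of all genes were lower and the median was 0.0323. Bodies were lower in 7 of 8, with a median of -0.179 points, where 52.3% of all bodies were lower and the median was -0.0392. Without mAdu replicate 1 this count of 7 was 4. At the other end 6 of 8 were lower, where 51.0% of all genes were, and 3 of 8 without mAdu replicate 1. Of the gene spans with flanks 4 of 8 were lower, where 54.0% of all genes were, but 2 without aged replicate 1 and 7 without aged replicate 2 or 3, and 7 with flanks of 5 kb. The 95% intervals of the differences lay between -2.94 and 2.14 points for all 8 bodies, and between -7.06 and 5.4 points for all 8 less methylated ends, which are means of 2 or 3 windows.

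Nfkbia had the lowest unadjusted p over bodies and over gene spans with flanks. Its body differed by -1.54 points (SE 0.574, limma unadjusted p = 0.0352, adjusted p = 0.982). The span with 10-kb flanks was at 58.7%, 59% and 58.6% in aged and at 59.8%, 60% and 59.8% in mAdu, without overlap. That difference was -1.08 points (SE 0.353, limma unadjusted p = 0.0231, adjusted p = 0.976). Of the 24 windows at Nfkbia 14 were lower in aged, and the promoter window was not among them. Within the body, the window from 55490001 to 55491000 averaged 17.9% ± 0.142 in aged and 22.1% ± 3.19 in mAdu, and the far-edge window 31.3% ± 2.17 and 33.8% ± 6.01. The body difference lay between -1.89 and -1.09 points without any single sample.

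**Figure D3:**
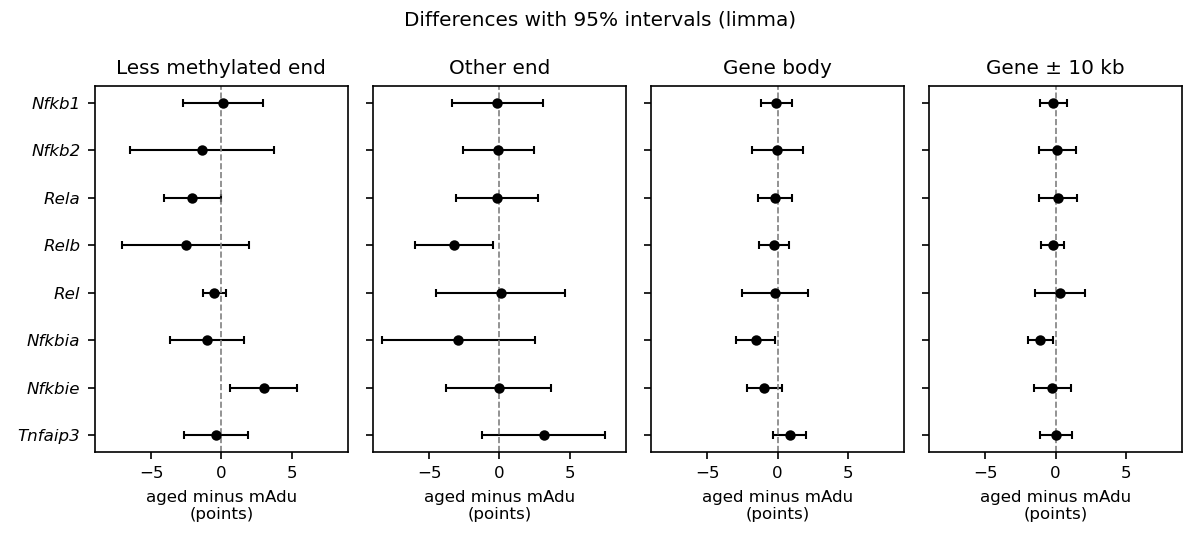
Difference in methylation, aged minus mAdu, in percentage points for each gene and region, with 95% limma intervals. Most intervals include 0, and the 5 that do not belong to the less methylated ends of Rela and Nfkbie, the other end of Relb and the body and flanked span of Nfkbia; there is no call after adjustment over all genes.

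Single windows gave no call either. Of the 345 windows 0 passed at an adjusted p of 0.05 (limma, 0.0211% of all windows) and 14 (4.06%) had an unadjusted p under 0.05, against 4.67% of all windows. Groups without overlap were found in 51 windows, or 14.8%, and in 10% of all windows. Aged was lower in 173 of the 345. The smallest unadjusted p was that of the window from 19605001 to 19606000 outside Relb, which belongs to its other end. It had 76%, 79.9% and 77.4% in aged and 84.4%, 85.1% and 84.7% in mAdu, a difference of -6.94 points (limma unadjusted p = 0.0098, adjusted p = 0.978). Its neighbour in the direction of Clasrp is the unmethylated window at the edge of that gene.

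For the other members the window with the smallest p is given by its means and difference. In the flank of Rel, the window from 23774001 to 23775000 was at 90.3% ± 4.05 in aged and 82.9% ± 0.164 in mAdu, 7.43 points higher. Inside Nfkb1, the window from 135666001 to 135667000 was at 85.6% ± 2.55 in aged and 91.1% ± 1.18 in mAdu, -5.51 points. Inside Nfkbie, the window from 45557001 to 45558000 was at 59.9% ± 1.17 in aged and 69.2% ± 3.86 in mAdu, -9.26 points. Outside Nfkb2, the window from 46292001 to 46293000 was at 65.1% ± 4.96 in aged and 75.1% ± 2.86 in mAdu, -9.97 points, which was the largest difference in size among the 345. Inside Tnfaip3, the window from 19005001 to 19006000 was at 82.8% ± 0.534 in aged and 87% ± 0.535 in mAdu, -4.23 points. In the flank of Nfkbia, the window from 55486001 to 55487000 was at 80.3% ± 2.57 in aged and 85.7% ± 1.59 in mAdu, -5.38 points, and that of Rela was the window outside its start described above. Each had an adjusted p of 0.978 (limma), and these windows were picked for their p among many, so the separation of their groups shows nothing by itself.

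**Figure D4:**
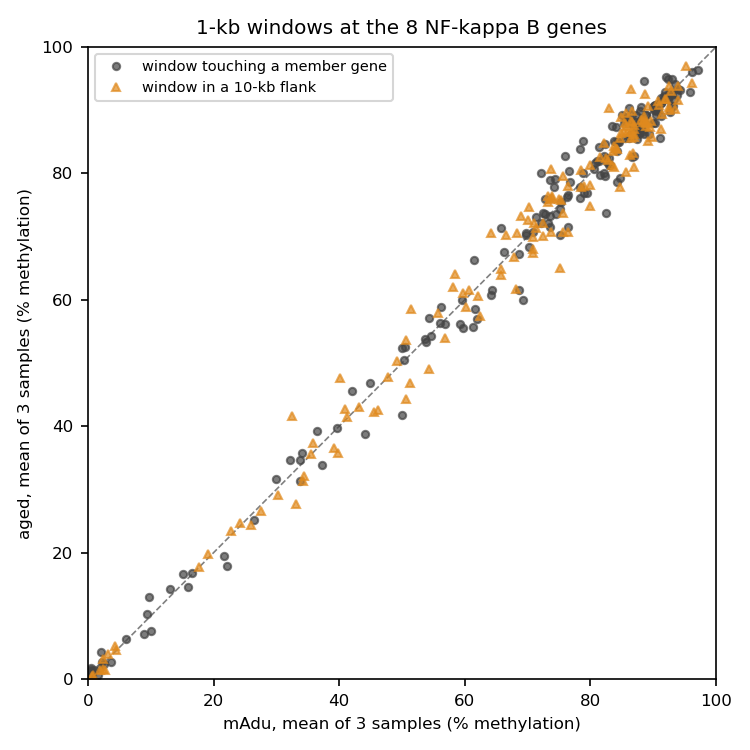
Mean methylation in percent of each of the 345 windows in aged (vertical axis) against mAdu (horizontal axis), for windows touching a member gene and windows in the 10-kb flanks, with the line of equal levels dashed. The windows follow the line from 0 to 100%, and the largest departure is 9.97 points.

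The most methylated windows of the loci show the upper end of the scale. The window from 23759001 to 23760000 inside Rel was at 96.4% ± 2.01 in aged and 97.1% ± 2.5 in mAdu. Beyond the less methylated end of Nfkb1, the window from 135700001 to 135701000 was at 97% ± 2.02 in aged and 95.3% ± 1.41 in mAdu. Maxima of the other loci, over all samples, lay between 92% and 95.2%. The least methylated window of each locus lay between 0.52% and 2.46% over all samples, and it was at an edge or promoter of the member for every gene but Nfkbie, where it was at Hsp90ab1 and the lncRNA gene Gm35399.

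Other genes of the pathway were taken from a list of 73 receptors, adaptors, kinases, further inhibitors and target genes, and none of them passed. At the less methylated end 71 were measured, 0 passed, 39 were higher and 32 lower in aged, and 6 had an unadjusted p under 0.05 (limma, smallest adjusted p = 0.912). Over bodies 65 were measured, 0 passed, 32 were higher and 33 lower, and 3 had an unadjusted p under 0.05 (limma, smallest adjusted p = 0.953). Over all genes, 4.97% of ends and 4.97% of bodies had an unadjusted p under 0.05. Their median level was 27.1% at the end, above the 16.8% of the family and below the 33.3% of all genes, and 73.2% over bodies.

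Among receptors and adaptors, the end of Ticam1, an adaptor of Toll-like receptors, was at 6.82% ± 0.406 in aged and 8.33% ± 0.614 in mAdu, and that of Tnfrsf11a, the receptor for RANK ligand, at 45.2% ± 0.94 and 42.1% ± 1.54. The bodies of Traf5, a signalling adaptor, and Ripk1, a kinase at the TNF receptor, were at 69% ± 0.276 and 79.4% ± 0.417 in aged and at 69.9% ± 0.158 and 78.6% ± 0.551 in mAdu. Among kinases and their partners, the end of Tab2, an adaptor of the TAK1 kinase, was at 9.73% ± 1.22 in aged and 7.94% ± 0.455 in mAdu, and that of Map3k7, the gene of TAK1, at 41% ± 1.93 and 38.1% ± 0.64. Their bodies showed smaller differences, with Tab2 at 77.4% in aged and 78.3% in mAdu and Tab1 at 80.6% and 80.2%. None of these genes passed.

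Among ubiquitin editors, the end of Itch, a ubiquitin ligase that works with A20, was at 32.7% ± 0.481 in aged and 36.5% ± 1.4 in mAdu, and that of Cyld, a deubiquitinase, at 28.2% ± 0.59 and 26% ± 1.45. Their bodies were at 83% and 80.6% in aged and at 83.8% and 81.8% in mAdu. Among target genes, the end of F3, the gene of tissue factor, was at 17.3% ± 0.999 in aged and 15.1% ± 0.202 in mAdu, and that of the chemokine gene Ccl5 at 74.1% ± 1.53 and 79.4% ± 2.57. The body of Il6, a cytokine gene, was at 74.4% ± 1.2 in aged and 69.5% ± 1.34 in mAdu (limma unadjusted p = 0.00144, adjusted p = 0.953), and that of Irf1, an interferon regulatory factor, at 33.7% ± 0.355 and 36.1% ± 0.742. These too did not pass.

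The nearest gene, given here for 7 of the 8 members, was found by the root mean square difference over 12 values, the less methylated end and the body in the 6 samples, among 16709 genes with both. Rel was nearest to Sp1 (0.815 points), Tnfaip3 to Cdk1 (0.803), Rela to Atp8a2 (0.944), Nfkb1 to Upf1 (1.02), Nfkbie to Stk16 (1.33) and Nfkb2 to Vwa7 (1.86). Nfkbia, with a low end and a low body, had the most distant nearest gene, Kazald1, at 2.75 points. The measure compares levels and speaks of no shared function.

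For the series as a whole, the mean over autosomal windows was 73.4% ± 0.317 in aged and 73.5% ± 0.152 in mAdu (difference -0.114 points, exact permutation p = 0.7). Markers of the labelled cell type had a lower median at the end than those of other lung cells, with overlap between the lists, such as Erg at 43.9% among the endothelial and Nkx2-1 at 1.86% among the epithelial genes over all samples. The median end of 12 endothelial genes, such as Cdh5 and Pecam1, was at 17.8% in aged and 17.2% in mAdu, against 62.5% and 60.5% for 8 haematopoietic, 35.2% and 34.8% for 8 epithelial and 27.6% and 25.3% for 8 mesenchymal genes. The mesenchymal ends were higher in aged in 7 of 8, by a median of 1.04 points, with 1 unadjusted p under 0.05 and none passing (limma). Over all genes, 49% of ends were lower in aged. The bodies of the mesenchymal genes went the other way, lower in aged in 5 of 8 with a median difference of -0.114 points. The part of other cells in the members' levels was not tested. Read depth is unknown, because no coverage accompanies the values, and the SD over samples is the measure of precision throughout.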

How the data were processed

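Per the labels' protocols, 30 ng of DNA from sorted lung endothelial cells was tagmented, and libraries were sequenced as 100 bp paired reads. The submitters' processing notes name BWA 0.7.8 and mm10. The sources used here give no methylation caller, coverage filter or averaging rule. The authors deposited the mean methylation of each window of 1000 bp as a fraction, without coverage; fractions were multiplied by 100. Of 1684140 autosomal windows, the 1683697 measured in every sample were kept.

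Regions are unweighted means of the windows they overlap; bodies needed 3 windows. Differences, aged minus mAdu, were tested in percent with limma 3.58.1 (R 4.3.3), a variance trend and group as the only term, fitted on all features of a kind with Benjamini-Hochberg adjustment. Intervals are that model's 95% intervals. The fit was tested on simulated data. Other settings, among them single samples left out, a logit scale and a replicate block, are in the closing section. Named windows are each locus's least and most methylated and its smallest p; named pathway genes are the 2 with the smallest p per class and region. Members, lists and rules were chosen with earlier results of these data known.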

Additional observations from a re-analysis of the deposited data

How the results depend on the processing

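No member passed in any region under any alternative (lowest adjusted p = 0.842 over 540 repeats of member results in limma, of which 480 kept direction). With a logit transform, with no variance trend and with a replicate block, 49 of 49 kept direction each time. Same-numbered samples of both groups deviated from their group means with correlations of -0.0116, -0.0167 and -0.000645. Differently numbered samples gave -0.00877 to 0.0202. These values show no pairing by number, but with deviations from means of 3 samples they cannot exclude one. With the replicate block, 0 members passed in each region, and calls over all features became 0 ends, 1 other end, 0 bodies, 0 promoters and 185 windows, against 1, 2, 3, 3 and 355 without it. The logit scale gave 0, 1, 1, 1 and 145. Without extreme windows there were 0 other ends and 0 bodies, without the variance trend 0 ends and 0 promoters, at edges 2000 bp outside 0 ends and at start edges 3. Leaving out single samples gave 0 to 4 ends, 1 to 7 other ends, 0 to 3 bodies, 0 to 5 spans with flanks, 0 to 4 promoters and 680 to 998 windows.

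The direction of 17 differences turned with the edges, flanks or averaging, that of the Nfkbie end (3 points) and the Nfkb2 end (-1.39) among them. At the Nfkbie end, edges 500 bp outside leave out the window from 45554001 to 45555000, at 41.6% in aged and 32.5% in mAdu. The cause of the other turns was not tested. Edges 500 bp outside gave 0.425 (Nfkb2), -0.0605 (Nfkbie) and 0.706 (Tnfaip3) points at the less methylated end and 0.555 (Nfkbie) at the other. Edges 2000 bp outside gave -0.428 (Nfkb1), 0.32 (Tnfaip3), 0.396 (Rela, other end) and 0.0739 (Nfkbie, other end). Medians of windows gave bodies of 1.83 (Relb), 1.26 (Nfkbie) and -1.16 (Tnfaip3). Flanks of 5 kb gave -0.0332 (Nfkb2), -0.202 (Rel) and -0.13 (Tnfaip3), with 7 of 8 spans lower in aged against 4, and 20 kb gave 0.0931 (Nfkb1), -0.0187 (Nfkb2) and 0.041 (Nfkbie). The count of Rela windows under 30% differed by 0.667.

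Without single samples, the differences that changed sign ranged as follows. Less methylated ends: Nfkb1 -0.674 to 1.13, Nfkb2 -3.62 to 0.102, Tnfaip3 -1.3 to 0.463. Other ends: Nfkb1 -0.951 to 0.646, Nfkb2 -0.493 to 0.453, Rela -0.595 to 0.34, Rel -1.13 to 1.68, Nfkbie -0.956 to 1.05. Bodies: Nfkb1 -0.279 to 0.199, Nfkb2 -0.672 to 0.408, Rela -0.514 to 0.19, Relb -0.502 to 0.0579, Rel -0.91 to 0.624. Spans with flanks: Nfkb1 -0.337 to 0.106, Nfkb2 -0.111 to 0.603, Rela -0.242 to 0.546, Rel -0.107 to 0.879, Nfkbie -0.63 to 0.103, Tnfaip3 -0.37 to 0.261. Promoters: Tnfaip3 second -1.13 to 2.65, Nfkbia -0.152 to 0.271. Others kept their sign but moved by over 1.5 times: the less methylated ends of Rela (-2.86 to -1.37), Relb (-4.07 to -0.838) and Nfkbia (-1.76 to -0.205), the other ends of Nfkbia (-4.92 to -1.84) and Tnfaip3 (1.73 to 4.91), the span of Relb (-0.435 to -0.0136) and the promoters of Nfkbie (-1.58 to -0.173), Rela (0.0331 to 1.89), Tnfaip3 (first, 0.105 to 1.19) and Nfkb2 (second and last, 0.527 to 1.51). Members lower in aged numbered 5 to 7 at ends, 3 to 7 at other ends, 4 to 7 for bodies, 2 to 7 for spans with flanks and 3 to 5 for promoters. The autosomal mean ranged from -0.29 to 0.017 points. Rel at edges 500 bp outside and the body of Nfkbia 2000 bp inside gave no value. Unknown coverage, 1 to 3 windows an end and 3 samples a group limit precision.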
